A study of Mus musculus with 9 samples.

Results

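The 10 genes described here are the core of the mammalian circadian clock and its outputs: the activators Arntl (also called Bmal1) and Clock, the repressors Per1, Per2, Per3, Cry1 and Cry2, the nuclear receptors Nr1d1 and Nr1d2 (REV-ERBα and REV-ERBβ), and the output factor Dbp. They were taken by name from a table of RNA-seq read counts for 43629 mouse genes, and all 10 passed the filter on low counts that left 15486 genes for testing. The RNA came from epithelial cells of the small intestine of naïve mice, per the labels. 3 libraries were labelled HIF1α∆IEC, 3 HIF2α∆IEC, and 3 came from littermate controls whose strain label marks floxed HIFα alleles without naming the gene. The ∆IEC label marks loss of the hypoxia-inducible factor subunit HIF1α (gene Hif1a) or HIF2α (gene Epas1) in intestinal epithelial cells. The labels used here do not name the Cre driver, the deleted exons, the age of the animals or the hour of collection. The extraction text mentions a collagen-induced arthritis model, which stands against the naïve label. No label states that the libraries came from separate animals, so a p-value here reflects only how far these libraries scatter, part of which may be technical.

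The clock is a feedback loop in which ARNTL and CLOCK, a pair of basic helix-loop-helix PAS proteins, bind E-box sequences and switch on the Per, Cry, Nr1d and Dbp genes. PER and CRY proteins return to block that pair, and the NR1D receptors repress Arntl through ROR elements, so that Arntl RNA peaks at about the opposite phase to Nr1d1 and Dbp RNA. DBP and its relatives TEF and HLF act on D-box sequences in a further set of genes. In the intestine the loop is known to time nutrient transport, cell division and barrier functions. The HIFα subunits belong to the same PAS family as ARNTL and CLOCK, and their binding core, ACGTG, shares letters with the E-box.

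The sequences below show where the letters of these motifs lie near the start sites of the genes on which the results turn. They come from RefSeq, in genome build GRCm38.p6 (mm10), whose table held a window of 300 bases around the start for 9 of the 10 genes. The motifs CACGTG (E-box), TTATGTAA (D-box), TAGGTCA (ROR element) and ACGTG (HIF core, contained in the E-box) were searched on both strands. Capitals mark these letters, and each sequence runs 5′ to 3′ on the gene's own strand.
Arntl: agggaaggcagaaagTAGGTCAgggacgga
Nr1d1: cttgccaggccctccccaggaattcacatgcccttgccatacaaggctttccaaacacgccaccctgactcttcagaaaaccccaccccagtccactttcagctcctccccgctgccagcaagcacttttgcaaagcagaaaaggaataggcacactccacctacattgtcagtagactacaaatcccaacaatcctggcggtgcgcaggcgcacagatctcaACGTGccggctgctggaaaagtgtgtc
Dbp: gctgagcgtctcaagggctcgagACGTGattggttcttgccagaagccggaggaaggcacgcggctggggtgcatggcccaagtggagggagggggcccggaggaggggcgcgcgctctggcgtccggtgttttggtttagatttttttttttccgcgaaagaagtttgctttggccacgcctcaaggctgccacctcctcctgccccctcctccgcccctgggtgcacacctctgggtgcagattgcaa
Per1: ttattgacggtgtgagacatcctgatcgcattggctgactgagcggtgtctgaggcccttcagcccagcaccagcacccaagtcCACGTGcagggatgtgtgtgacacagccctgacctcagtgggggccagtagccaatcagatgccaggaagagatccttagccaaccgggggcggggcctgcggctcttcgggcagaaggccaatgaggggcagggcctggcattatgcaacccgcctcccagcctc
Per3: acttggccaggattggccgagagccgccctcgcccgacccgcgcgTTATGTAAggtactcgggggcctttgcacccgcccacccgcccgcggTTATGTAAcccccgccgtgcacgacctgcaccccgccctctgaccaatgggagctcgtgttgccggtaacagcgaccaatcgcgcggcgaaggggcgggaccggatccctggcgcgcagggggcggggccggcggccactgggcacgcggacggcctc
The Arntl stretch, chr7:113207526-113207555 on the plus strand, holds TAGGTCA at 31 to 37 bases after the second listed start, and Arntl was the only clock gene with this motif, which 2.61% of 32851 windows held. The other sequences are the 250 bases before a start site. The Per1 sequence, chr11:69098699-69098948 on the plus strand, holds an E-box at positions -166 to -161 from the start. Cry1 was the other of the 2 clock genes with an E-box, found in 7.15% of windows. The Per3 sequence, chr4:151044666-151044915 on the minus strand, holds the D-box letters at 2 places, at positions -205 to -198 and -158 to -151, against 0.938% of windows with any. The Nr1d1 sequence, chr11:98775378-98775627 on the minus strand, and the Dbp sequence, chr7:45704997-45705246 on the plus strand, hold ACGTG and no full E-box of these letters. ACGTG stood in the windows of 5 clock genes and in 19.6% of windows. A gene was counted for a match in any of its windows, and Arntl, Clock and Per1 had additional windows. Counts of genes and shares of windows are therefore unlike units. A match is a description of letters, not a bound site, and letters outside these windows were not searched.

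Total counts per library were 21461212 to 24706678 in controls, 20959964 to 29931812 in HIF1α∆IEC and 31576340 to 40391453 in HIF2α∆IEC. 2 libraries stood apart in their share of counts from mitochondrial genes. It was 12.2% in HIF1α∆IEC replicate 2 and 10.8% in HIF2α∆IEC replicate 1, against 5.04% to 6.74% in the other 7. All 5 epithelial markers were measured, with a summed level of 8350 to 12200 CPM (read counts scaled to a common library size), and markers of T and intraepithelial lymphocytes summed to 680 CPM in HIF2α∆IEC replicate 1 against 66.1 to 196 elsewhere. The Y-linked gene Ddx3y was at 5.04 CPM or more in the 3 controls and in replicate 1 of each deletion group. It was at 0 in the other 4 libraries, which instead held 105 CPM or more of Xist. By these genes all 3 controls read as male. Each deletion group held libraries of both sexes, so its libraries came from more than 1 animal. Sex was thus unequal between the controls and the deletion groups, and its part in the comparisons was not tested. Over all libraries the targeted genes did not separate by label. Hif1a was at 22.6, 64.3 and 18.01 CPM in HIF1α∆IEC against 15.97 to 21.1 in controls. Epas1 was at 36.2, 11.2 and 11.6 CPM in HIF2α∆IEC against 14.5 to 32.7 in controls. In HIF2α∆IEC replicates 2 and 3 Epas1 was lower than in every other library, while replicate 1, which stood apart, held the most. A count over the whole gene cannot show the loss of single exons, so these levels check nothing about the deletion.

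Arntl, the activator that the loop cannot run without, was measured at 25.7, 39.5 and 39.0 CPM in control replicates 1 to 3. Its level was 23.6, 33.7 and 29.03 CPM in HIF1α∆IEC, and 12.9, 36.0 and 60.2 CPM in HIF2α∆IEC. HIF2α∆IEC thus held both the lowest and the highest Arntl level of the 9 libraries, 4.68-fold apart, and the 3 groups overlapped. Clock, its partner, was at 9.62, 16.9 and 13.8 CPM in controls and at 9.35, 32.8 and 8.81 CPM in HIF1α∆IEC. In HIF2α∆IEC Clock was at 18.04, 12.1 and 14.03 CPM. The single high Clock value was that of HIF1α∆IEC replicate 2, a library that stood apart. Without both such libraries the range of Clock narrowed from 3.73-fold to 1.92-fold, while that of Arntl was 2.56-fold.

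Nr1d1, the heme-binding receptor that represses Arntl, had the highest level per length of the 10 genes in controls, 28.9 ± 3.99 CPM per kilobase (SD, n = 3), followed by Arntl at 11.96 ± 2.69. The other 8 lay between 0.802 ± 0.0928 (Per3) and 3.86 ± 3.45 (Dbp) CPM per kilobase, and Dbp, Cry1, Per1 and Per2, neighbours in this order, had means closer together than their largest SD, as had Nr1d2, Clock and Cry2. Nr1d1 was at 96.5, 74.9 and 95.7 CPM in controls, and at 116, 74.1 and 112 CPM in HIF1α∆IEC. In HIF2α∆IEC its values were 171, 63.3 and 39.9 CPM, again the highest and the lowest of all 9. Nr1d2, its paralog, was at 8.01, 11.6 and 9.98 CPM in controls, at 10.3, 23.9 and 8.92 CPM in HIF1α∆IEC, and at 30.2, 7.78 and 3.91 CPM in HIF2α∆IEC. Its highest pair of values came from the 2 libraries that stood apart.

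Dbp, a leucine-zipper factor whose RNA is among the most rhythmic in many mouse tissues, spread most. It was at 23.1, 4.55 and 6.53 CPM in controls, from counts of 472, 112 and 172. HIF1α∆IEC libraries gave 21.7, 10.9 and 16.7 CPM. HIF2α∆IEC replicate 1 gave 67.7 CPM from 2149 counts, while replicates 2 and 3 gave 2.76 CPM from 97 counts and 0.971 CPM from 42. The full range was 69.7-fold, and 23.7-fold without HIF2α∆IEC replicate 1. Dbp differed 5.06-fold among the 3 controls alone, from 4.55 CPM (95% Poisson interval 3.75 to 5.48) in replicate 2 to 23.1 CPM (21 to 25.2) in replicate 1. These intervals cover counting error only, and the control values differed by far more than that.

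The Per genes encode repressors with distinct inputs: Per1 and Per2 also answer acute signals, and Per3 is dispensable for rhythm in mice. Per1 was at 25.7, 15.4 and 12.1 CPM in controls, at 35.3, 9.24 and 20.04 CPM in HIF1α∆IEC, and at 64.6, 31.0 and 16.6 CPM in HIF2α∆IEC. Per2 was at 20.4, 13.5 and 19.0 CPM in controls, at 21.6, 7.34 and 11.4 CPM in HIF1α∆IEC, and at 42.9, 11.3 and 15.7 CPM in HIF2α∆IEC. Per3 was at 6.74, 8.49 and 7.89 CPM in controls, at 9.68, 2.96 and 5.53 CPM in HIF1α∆IEC, and at 25.7, 6.35 and 4.41 CPM in HIF2α∆IEC. For each of the 3 Per genes HIF2α∆IEC replicate 1 was the highest library and HIF1α∆IEC replicate 2 the lowest. Without both of these libraries the range fell to 2.92-fold for Per1, 1.91-fold for Per2 and 2.19-fold for Per3.

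The Cry genes, which encode the flavoproteins that do most of the repressing, varied least. Cry1 was at 11.9, 8.66 and 9.37 CPM in controls, at 13.1, 7.34 and 7.06 CPM in HIF1α∆IEC, and at 11.9, 11.4 and 13.3 CPM in HIF2α∆IEC, a range of 1.88-fold. Cry2 was at 9.52, 10.2 and 9.79 CPM in controls and at 11.1, 7.23 and 11.1 CPM in HIF1α∆IEC. HIF2α∆IEC libraries held 19.9, 12.5 and 10.7 CPM of Cry2, all above the controls, the highest being HIF2α∆IEC replicate 1.

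**Figure D1:**
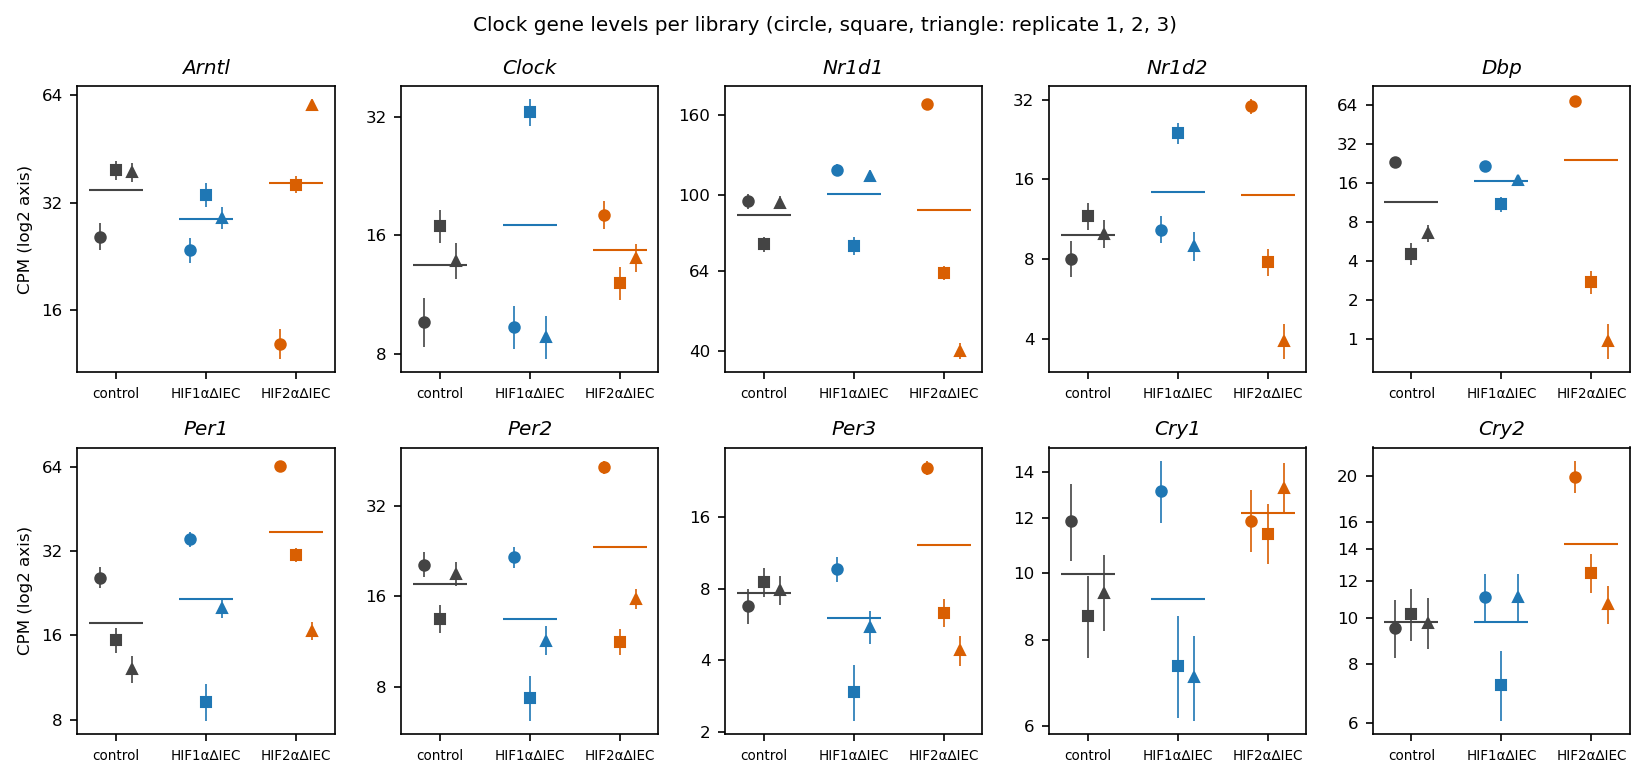
CPM of each clock gene (log2 axis) in every library, by group. Circles, squares and triangles are replicates 1, 2 and 3, vertical bars are 95% Poisson intervals, and horizontal lines are group means. The 3 HIF2α∆IEC libraries of Dbp span 0.971 to 67.7 CPM, while the 9 values of Cry1 lie between 7.06 and 13.3.

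The spread within groups can be read from edgeR's biological coefficient of variation (BCV), the relative scatter of true levels between libraries of a group. It was 0.896 for Dbp, higher than 99.6% of tested genes, and 0.537, 0.522 and 0.463 for Nr1d2, Per3 and Per1, against a median of 0.326 over all tested genes. Arntl and Nr1d1 had BCVs of 0.382 and 0.376, higher than 67.0% and 65.4% of genes. Cry1 and Cry2, both at 0.299, lay under the median. Of the variance of log2 CPM over the 9 libraries, group means accounted for 3.43% in Arntl, 7.82% in Nr1d1 and 11.9% in Dbp, against a median of 16.3% over all tested genes. The highest shares were 34.6% for Cry1 and 42.8% for Cry2.

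Arntl, known to peak at the opposite phase to Dbp and Nr1d1, lay opposite to both across the libraries. Over the 9 libraries, log2 CPM of Arntl and Dbp had a Pearson r of -0.939 (exact permutation p = 0.000413, adjusted 0.0093 over the 45 pairs of clock genes, two-sided) and a Spearman rho of -0.933 (exact permutation p = 0.00075, adjusted 0.0337). Without the 2 libraries farthest from the median of Arntl, HIF2α∆IEC replicates 1 and 3, r was -0.867 (exact permutation p = 0.0179, adjusted 0.402). With group means removed r was -0.988, and its exact permutation p of 0.00463 is the smallest that 216 arrangements within groups allow. Without the 2 libraries that stood apart r was -0.946 (exact permutation p = 0.00437, adjusted 0.0982), so the size stayed and the adjusted value missed 0.05 with 7 libraries. Arntl and Nr1d1 had r = -0.915 (exact permutation p = 0.00178, adjusted 0.02) and rho = -0.85 (exact permutation p = 0.00607, adjusted 0.0911). Without the 2 libraries farthest from the median of Arntl, this r was -0.688 (exact permutation p = 0.0964, adjusted 0.769). Neither pair thus passed the adjusted threshold without those libraries, a setting that leaves 7 libraries and cuts both ends of the Arntl range.

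Nr1d1 and Dbp, known to peak near each other, had r = 0.946 (exact permutation p = 0.000413, adjusted 0.0093) and rho = 0.9 (exact permutation p = 0.00203, adjusted 0.0456). Their r was 0.815 without the 2 libraries farthest from the median of Nr1d1 (exact permutation p = 0.0341, adjusted 0.512, past the threshold no longer), and 0.945 without the 2 that stood apart (exact permutation p = 0.00159, adjusted 0.0714). The other pairs past an adjusted p of 0.05 were Per2 with Per3 (r = 0.894, exact permutation p = 0.00294, adjusted 0.0264, rho = 0.783, p = 0.0172, adjusted 0.193) and Per1 with Cry2 (r = 0.875, exact permutation p = 0.00163, adjusted 0.02, rho = 0.767, p = 0.0214, adjusted 0.193). Both rested on the 2 libraries that stood apart, which were also the farthest ones: without them r was 0.448 (exact permutation p = 0.306) and 0.545 (exact permutation p = 0.205). By Spearman's rho 2 pairs passed, Arntl with Dbp and Nr1d1 with Dbp. Other pairs of genes on the same side of the loop did not pass: Nr1d1 with Nr1d2 had r = 0.668 (exact permutation p = 0.0472, adjusted 0.142, and -0.252 without the 2 farthest libraries), Nr1d2 with Dbp 0.708 (exact permutation p = 0.0328, adjusted 0.12, and 0.0424), and Per1 with Nr1d1 0.558 (exact permutation p = 0.116, adjusted 0.228). Of the 45 pairs 5 passed over 9 libraries, 1 without HIF2α∆IEC replicate 1, 3 without HIF1α∆IEC replicate 1, and 0 without both libraries that stood apart. Arntl and Clock, the partners in the activating complex, had r = 0.0576 over 9 libraries (exact permutation p = 0.878) and 0.774 without the 2 that stood apart (exact permutation p = 0.0371, adjusted 0.334).

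**Figure D2:**
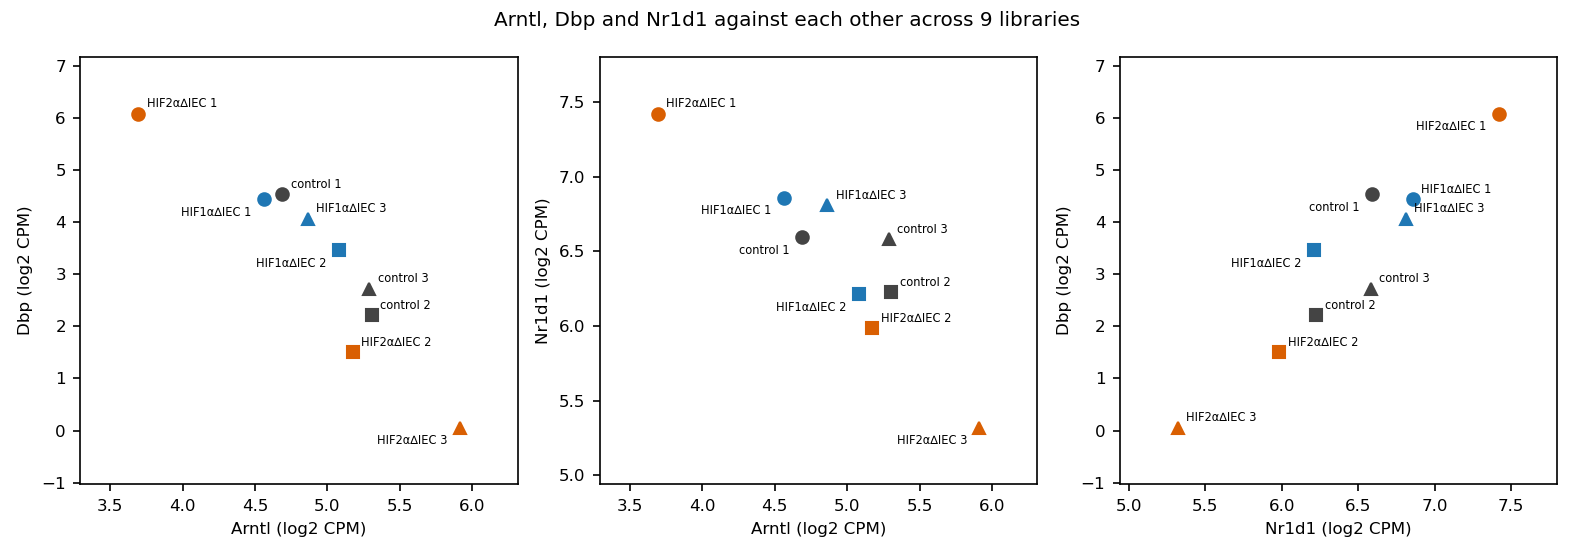
Log2 CPM of Arntl, Dbp and Nr1d1 plotted against each other, 1 point per library, coloured by group with its replicate number. Dbp and Nr1d1 are lowest where Arntl is highest (HIF2α∆IEC replicate 3) and highest where Arntl is lowest (HIF2α∆IEC replicate 1), with r = -0.939, -0.915 and 0.946 from left to right.

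**Figure D3:**
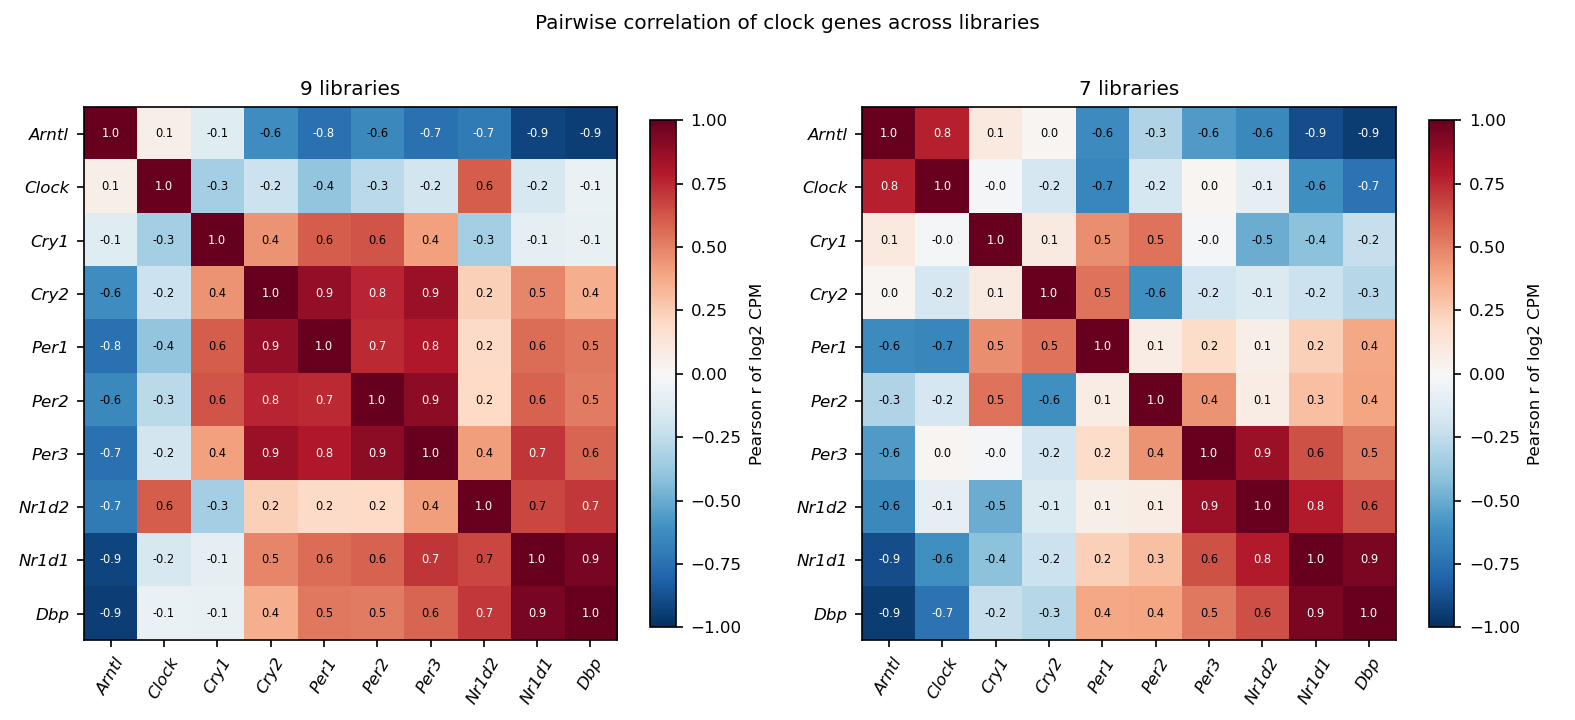
Pearson r of log2 CPM for all 45 pairs of clock genes over 9 libraries (left) and over the 7 left without HIF1α∆IEC replicate 2 and HIF2α∆IEC replicate 1 (right). Arntl stays opposite to Nr1d1 and Dbp in both, while the block of positive values among Per1, Per2, Per3 and Cry2 on the left is mostly gone on the right.

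The ratio of Arntl to Dbp, per length, puts this opposition as a single value for each library. It was 1.13, 8.79 and 6.06 in controls, 1.10, 3.13 and 1.76 in HIF1α∆IEC, and 0.193, 13.2 and 62.9 in HIF2α∆IEC. Replicate 1 had the lowest ratio of its group in all 3 groups. The values of the 3 groups overlapped, and the controls alone covered most of the range of HIF1α∆IEC. The Arntl to Nr1d1 ratio was 0.283, 0.559 and 0.432 in controls, 0.215, 0.482 and 0.274 in HIF1α∆IEC, and 0.0796, 0.603 and 1.60 in HIF2α∆IEC. In all 3 groups it too was lowest in replicate 1. With no hour of collection in the labels, the part of sampling time in these ratios was not tested.

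Other genes of the loop took the same positions, described here by r over 9 libraries with no test. Tef and Hlf, which encode relatives of DBP and like Dbp are activated by the loop, had r = 0.966 and 0.963 with Dbp, ranking 2nd and 5th of 15485 genes. Tef was at 66.8, 24.95 and 37.3 CPM in controls, at 73.7, 27.7 and 46.6 CPM in HIF1α∆IEC, and at 121, 20.2 and 12.6 CPM in HIF2α∆IEC. Arntl was the most opposite of all genes to Dbp, and Dbp, Tef and Nr1d1 stood 10th, 12th and 34th from the opposite end of the genes ranked by r with Arntl. Nfil3, which encodes a repressor at D-boxes and is itself a target of the NR1D receptors, ranked 25th on the Arntl side (r = 0.87), and Npas2, the gene of a CLOCK paralog that is also under ROR elements, ranked 183rd (r = 0.756). Nfil3 was at 11.1 CPM in HIF2α∆IEC replicate 1 and 36.1 in replicate 3, with 22.9 to 28.9 in the controls and HIF1α∆IEC. Npas2 was at 17.98 CPM and 47.7 CPM in the same 2 HIF2α∆IEC libraries. Ciart, which encodes the repressor CHRONO, reached 7.49 CPM in HIF2α∆IEC replicate 1 against at most 1.76 CPM elsewhere.

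**Figure D4:**
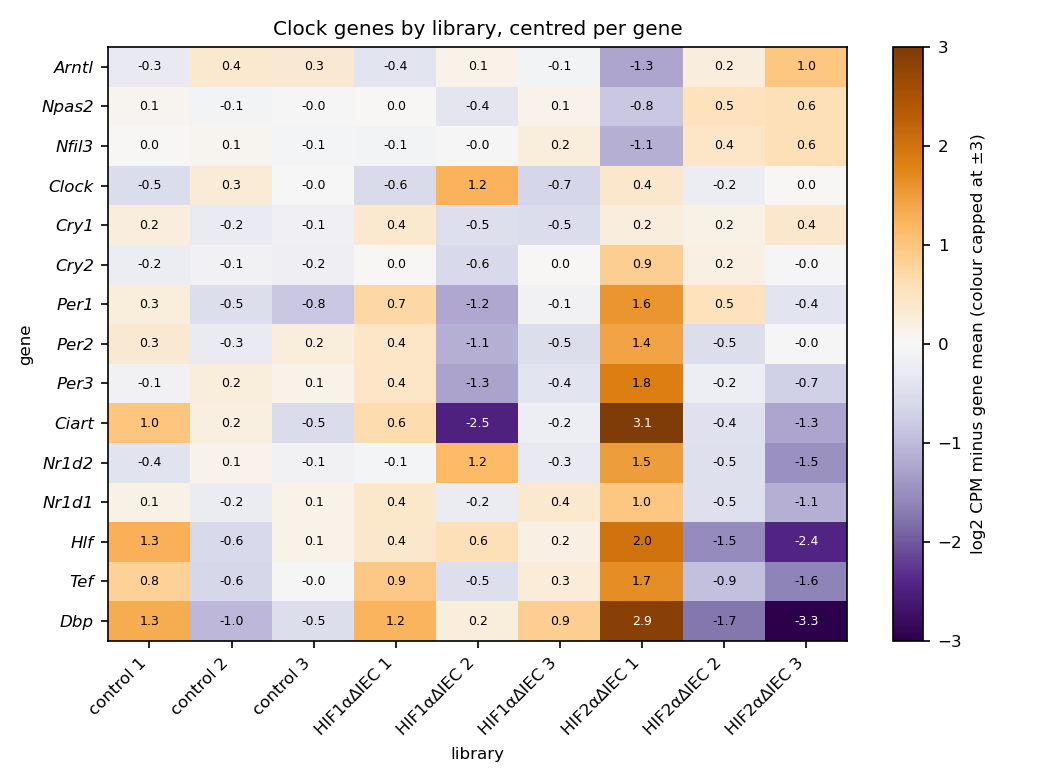
Log2 CPM minus each gene's mean over the 9 libraries, for the 10 clock genes and Npas2, Nfil3, Ciart, Hlf and Tef; the colour stops at 3 in either direction. The column of HIF2α∆IEC replicate 1 is low for Arntl, Npas2 and Nfil3 and high for the Per, Nr1d, Hlf, Tef and Dbp rows, and the column of HIF2α∆IEC replicate 3 is the reverse for Arntl, Dbp, Tef, Hlf and the Nr1d genes.

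Over all tested genes with a mean of at least 5 CPM, 9701 apart from predicted genes, the 5 most like Dbp were Foxq1 (r = 0.982), Tef (0.966), Gfod1 (0.963), Rac2 (0.963) and Inpp5d (0.953). Foxq1 encodes a forkhead transcription factor, and Rac2 and Inpp5d encode signalling proteins known from blood cells. The 5 most opposite to Dbp were Arntl (-0.939), Acaca (-0.913), Nek2 (-0.908), Gla (-0.901) and Slc34a2 (-0.898). Those most like Arntl were Kif2c (0.957), Thg1l (0.952), Ncaph (0.935), Myb (0.932) and Acaca (0.932), and those most opposite to it were Gfod1 (-0.979), Fes (-0.976), Vwa1 (-0.948), Ada (-0.944) and Ifnar2 (-0.944). Kif2c, Ncaph and Nek2 act in cell division, and Acaca encodes an enzyme of fatty acid synthesis. Markers of crypt and dividing cells, all 4 measured, summed to 323, 917 and 758 CPM in controls, 319, 1020 and 450 in HIF1α∆IEC, and 437, 421 and 833 in HIF2α∆IEC. The 4 enterocyte markers summed to 5840, 3450 and 4350 CPM, 6380, 5150 and 5160 CPM, and 8990, 3920 and 3980 CPM in the same order. Replicate 1, lowest in its group for Arntl and highest for Dbp in all 3 groups, was also highest in its group for the enterocyte sum; for the crypt sum it was lowest among controls and HIF1α∆IEC and in between among HIF2α∆IEC. The 3 duodenum and jejunum markers summed to 1200, 849 and 967 CPM in controls and to 1240, 667 and 1080 CPM in HIF1α∆IEC. In HIF2α∆IEC the sums were 1490, 955 and 862 CPM. These sums order the libraries of each group as Dbp does. The 3 ileum markers summed to 151, 136 and 406 CPM in controls and to 313, 859 and 407 CPM in HIF1α∆IEC. In HIF2α∆IEC they summed to 399, 635 and 705 CPM. The ileum sums reverse the order of Dbp in both deletion groups and not in controls. The 6 lymphocyte markers summed to 91.0, 122 and 95.3 CPM, 110, 188 and 196 CPM, and 680, 72.7 and 66.1 CPM, which follows the order of Dbp in HIF2α∆IEC and in neither of the other groups. Replicate 1 was also the only library of each deletion group with Ddx3y, which all 3 controls held. The part of cell mixture, gut segment and sex in the clock gene levels was not tested. In bulk RNA fewer cells of a type and less RNA per cell cannot be told apart.

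Between HIF1α∆IEC and controls no clock gene passed edgeR's quasi-likelihood test at an adjusted p of 0.05, and 0% of the 15486 tested genes did. At an unadjusted p under 0.05 the counts were 0 of the 10 clock genes and 3.87% of all genes. The groups overlapped for all 10 clock genes, against 8.32% of all genes with groups that did not overlap. Log2 fold changes ran from -0.39 ± 0.503 (SE) for Per2 to 0.54 ± 0.634 for Nr1d2, with 0.54 ± 1.142 for Dbp, -0.27 ± 0.435 for Arntl and 0.18 ± 0.432 for Nr1d1. 5 of the 10 were positive, and their median was 0.088, against 0.023 over all tested genes. Without HIF1α∆IEC replicate 2, Clock and Nr1d2 changed from 0.34 and 0.54 to -0.60 and -0.07, and Per1 changed from 0.28 to -0.31 without HIF1α∆IEC replicate 1.

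Between HIF2α∆IEC and controls 0 of the 10 clock genes and 0% of all genes passed the same test, and at an unadjusted p under 0.05 the shares were 0 of 10 and 1.85%. Cry2 was the only clock gene whose groups did not overlap, with every HIF2α∆IEC library above every control (log2 fold change 0.55 ± 0.311, edgeR unadjusted p = 0.107), where 5.55% of all genes did not overlap and 3.03% in this direction. Without HIF2α∆IEC replicate 1 its fold change was 0.25. Per1 had the largest fold change, 1.08 ± 0.543 (edgeR unadjusted p = 0.0717, adjusted 1), and 0.43 without that library. Dbp was at 1.07 ± 1.148, Per3 at 0.66 ± 0.609, Nr1d1 at 0.039 ± 0.431 and Arntl at 0.066 ± 0.434. All 10 values were positive, with a median of 0.45 against 0.015 over all genes. Without HIF2α∆IEC replicate 1, 6 of the 10 turned negative: Clock -0.023, Per2 -0.36, Per3 -0.51, Nr1d2 -0.76, Nr1d1 -0.78 and Dbp -2.60.

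HIF2α∆IEC set directly against HIF1α∆IEC gave 0 of 10 clock genes and 0% of all genes past the adjusted threshold. At an unadjusted p under 0.05 there were 0 of 10 and 6.59%, and groups that did not overlap were 0 of 10 and 10.4%. The largest log2 fold changes were 1.00 ± 0.613 for Per3 (edgeR adjusted p = 0.833), 0.79 ± 0.539 for Per1 and 0.79 ± 0.504 for Per2. 7 of 10 values were positive, with a median of 0.47 against 0.014 over all genes. Without both libraries that stood apart Per1, Per2 and Per3 were at -0.19, -0.24 and -0.46, and Dbp changed from 0.53 to -3.34.

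**Figure D5:**
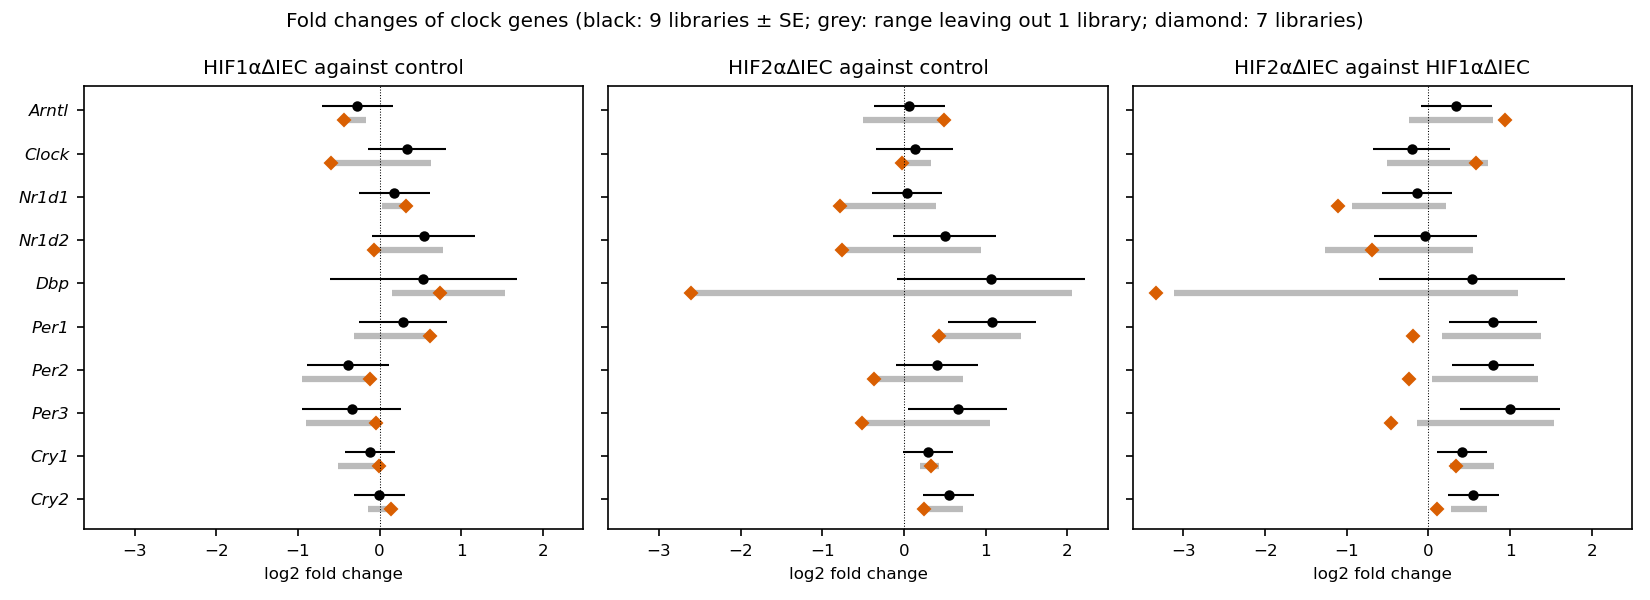
Log2 fold changes of the clock genes in the 3 comparisons. Black points are edgeR estimates from 9 libraries with their SE, grey bars the range when 1 library at a time is left out, and diamonds the value without both libraries that stood apart. For Dbp in HIF2α∆IEC against control the grey bar runs from -2.60 to 2.06 around an estimate of 1.07.

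Genes that work beside the loop were counted in lists chosen by function. Genes of a list were measured in the same libraries, so their signs are not independent. Over all tested genes the median log2 fold change was 0.023 in HIF1α∆IEC and 0.015 in HIF2α∆IEC against controls. Without both libraries that stood apart these medians were -0.024 and 0.004. In each list and comparison 0 genes passed edgeR's adjusted threshold. Of the other activators and ROR receptors 4 of 5 were tested, Rorb being at 0 in all libraries, and 3 of these 4 had positive fold changes in HIF2α∆IEC against controls. Without both libraries that stood apart 3 were tested, with 2 positive. Arntl2, an Arntl paralog, was at -1.29 ± 0.607 in HIF1α∆IEC against controls from levels under 2 CPM. All 6 D-box and DEC-type factors (Nfil3, Tef, Hlf, Bhlhe40, Bhlhe41, Ciart) had positive fold changes in HIF2α∆IEC against controls, with a median of 0.19. For Tef, Hlf, Bhlhe40 and Ciart that sign rested on the libraries that stood apart, without which 2 of 6 were positive and the median was -0.63. Tef changed from 0.25 to -1.38, Hlf from 0.11 to -2.37, Bhlhe40 from 0.093 to -0.15 and Ciart from 1.33 to -1.11, and Nfil3 was at 0.51. Hlf was at 5.92 CPM in HIF2α∆IEC replicate 1 and at 0.513 and 0.277 in replicates 2 and 3, against 0.975 to 3.61 in controls. Of 12 clock kinases, ligases and cofactors 5 were positive in HIF1α∆IEC and 7 in HIF2α∆IEC against controls, with medians of -0.051 and 0.032, and 5 in each without both libraries that stood apart. Fbxl21, which encodes a ligase for CRY proteins, was at -0.63 ± 0.42 in HIF1α∆IEC against controls, with all 3 values under the controls, as in 3.72% of all genes.

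Of 10 clock outputs, 6 were positive in HIF1α∆IEC and 7 in HIF2α∆IEC against controls, and 6 and 4 without both libraries that stood apart. The cell cycle kinase gene Wee1, a known clock target, was at 13.0 to 14.8 CPM in HIF1α∆IEC, under all 3 controls (16.02 to 20.9 CPM), as were 3.72% of all genes, with a log2 fold change of -0.36 ± 0.264 (edgeR adjusted p = 0.999). Pdk4, which encodes a kinase that shuts pyruvate dehydrogenase, had 15.2, 3.39 and 2.50 CPM in HIF2α∆IEC against 2.36, 0.634 and 0.963 in HIF1α∆IEC. That is a log2 fold change of 2.39 ± 0.723 (edgeR adjusted p = 0.649), and of 0.86 ± 0.499 without both libraries that stood apart, of which HIF2α∆IEC replicate 1 held the 15.2 CPM. Among 11 rhythmic transporters and absorption genes 6 and 9 were positive in HIF1α∆IEC and HIF2α∆IEC against controls, and 6 and 1 without both libraries that stood apart. Slc2a5, the fructose transporter gene, named after its values were seen, had the highest r with Dbp of the 11, 0.947, 7th of 15485 genes. It ran from 65.6 CPM in HIF2α∆IEC replicate 3 to 289 in replicate 1. The r of the others with Dbp ran from -0.118 for Abcg2 to 0.804 for Slc15a1.

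Cues that can reset peripheral clocks were read through their known response genes. All 10 immediate early genes had positive fold changes in HIF1α∆IEC against controls, with a median of 0.79 against 0.023 over all tested genes. Of the 10, 5 were higher at an edgeR unadjusted p under 0.05, as were 2.91% of all genes. Among them Junb was at 0.72 ± 0.241, Jun at 0.91 ± 0.352 and Klf2 at 1.43 ± 0.536, each with all 3 values above the controls, as in 4.6% of all genes. Jun was at 57.1, 61.9 and 155 CPM in HIF1α∆IEC against 41.9 to 55.03 in controls, so that replicate 3 stood far above the rest. Without both libraries that stood apart all 10 were again positive, with a median of 0.86. Macrophage markers, all 4 measured, summed to 13.4 to 37.6 CPM in HIF1α∆IEC against 8.94 to 11.4 in controls, and lymphocyte markers to 110 to 196 against 91.0 to 122. Neither their part in these values nor that of sex was tested. In HIF2α∆IEC all 10 were positive as well, with a median of 0.53 and Fos at 1.22 ± 0.516. Without both libraries that stood apart 8 were, with a median of 0.26 and Fos at 0.55 ± 0.36. None passed the adjusted threshold. Of 7 tested glucocorticoid response genes 6 were positive in HIF1α∆IEC and 5 in HIF2α∆IEC, and 4 in each without both libraries that stood apart. Sgk1 was at 1.65 ± 0.673 in HIF2α∆IEC, from 146 CPM in replicate 1 and 28.6 and 17.2 in replicates 2 and 3 against 17.9 to 24.9 in controls, and at 0.17 ± 0.36 without both libraries. Of 9 heat and cold response genes 6 were positive in each deletion group against controls, and 4 in HIF1α∆IEC and 6 in HIF2α∆IEC without both libraries that stood apart. The cold-induced gene Rbm3 was at -0.54 ± 0.296 in HIF1α∆IEC. Hsp90aa1, the gene of a heat shock chaperone, was at 0.80 ± 0.372 in HIF1α∆IEC, and at 0.078 ± 0.171 without both libraries, replicate 2 holding 145 CPM. In HIF2α∆IEC it was at 0.62 ± 0.371, with all 3 values above the controls, as in 3.03% of all genes. The 8 PAS-family genes gave 4 and 6 positive values, and 4 and 3 without both libraries. Hif1a in HIF1α∆IEC against controls changed from 0.88 ± 0.457 to 0.065 ± 0.251. Epas1 in HIF2α∆IEC against controls changed from -0.212 ± 0.461 to -0.975 ± 0.316, not past the adjusted threshold. The comparisons with controls share the same 3 control libraries.

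Nr1d1 and Dbp overlap genes on the opposite strand, and whether the counting used strand is not given in the sources used here. Nr1d1 lies at chromosome 11, 98767932 to 98775333 on the minus strand, and shares 1075 bases at its 3′ end with Thra, the thyroid hormone receptor gene. Dbp lies at chromosome 7, 45705088 to 45710155 on the plus strand, and shares 689 bases at its 3′ end with the sphingosine kinase gene Sphk2. Thra was at 98.1 to 174 CPM and Sphk2 at 123 to 185 CPM. They ranged 1.77-fold and 1.5-fold over the 9 libraries, against 4.30-fold and 69.7-fold for Nr1d1 and Dbp. Thra was at its lowest, 98.1 CPM, in HIF2α∆IEC replicate 1, where Nr1d1 was highest. Per3 lies inside the span of Camta1 on the same strand, which was at 5.31 to 10.1 CPM.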

How the data were processed

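The authors deposited 1 table of raw read counts per gene for 9 libraries, together with a gene length in bases. Reads were handled with CASAVA and Bowtie 0.12.2 on mm10, per the submitters' processing notes. How reads were assigned to genes, and whether strand was used, is not given in the sources used here. Counts were fitted in 1 model over all 3 groups with edgeR 4.0.16 (R 4.3.3), using TMM scaling, filterByExpr and the quasi-likelihood F test, with 6 residual degrees of freedom and Benjamini-Hochberg adjustment over 15486 genes. SE is the fold change divided by the root of F, and "positive" counts the sign of a fold change. CPM values use TMM library sizes; log2 CPM adds a prior count of 2. Levels per length divide by the deposited length. Gene pairs were tested by exact permutation of libraries. Alternatives used DESeq2 1.42.0, limma 3.58.1 (voom) and changed filters and libraries. The code was tested on simulated data. The text names the 10 clock genes, Hif1a and Epas1, up to 4 genes with the smallest p per list and comparison, and the genes most like or opposite to Arntl and Dbp; Hlf, Slc2a5, the overlapping genes and the library checks were added after their values were seen. List counts without both libraries that stood apart were added after the data were seen. The members and lists were chosen with earlier results of these data known.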

Additional observations from a re-analysis of the deposited data

How the results depend on the processing

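No clock gene passed an adjusted p of 0.05 in any comparison under any of the 18 settings tried; the smallest adjusted p of a clock gene was 0.569, 0.53 and 0.267 for HIF1α∆IEC against control, HIF2α∆IEC against control and HIF2α∆IEC against HIF1α∆IEC. Over all genes the count of calls was 0 in the edgeR fit and, in this order of comparisons, 2, 5 and 15 with DESeq2, 1, 5 and 10 with no count filter, and 0 to 1 in each when a library was left out. It was 1 for HIF2α∆IEC against control without both libraries that stood apart. Deviations from group means correlated at -0.37 to 0.237 over the 9 pairs of same-numbered libraries. Between groups, pairs of unlike number correlated at -0.257 to 0.35. With so few libraries per group this can neither show nor exclude a pairing by number. Replicate 1 was the lowest of its group for Arntl and the highest for Dbp in every group. The fit with the replicate block called 1, 2 and 0 genes. With the replicate block, signs turned in HIF2α∆IEC against control for Arntl (-0.096), Nr1d1 (-0.14) and Dbp (-0.091), and in HIF2α∆IEC against HIF1α∆IEC for Clock (0.057) and Dbp (-1.19).

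The 5 pairs past the threshold became 0 with group means removed, where the smallest p that 216 arrangements allow is 0.00463, 0 without both libraries that stood apart, 0 without the 2 farthest, and 1 to 7 when a library was left out. With limma-voom, signs turned in HIF2α∆IEC against control for Arntl (-0.14), Nr1d1 (-0.24), Nr1d2 (-0.069) and Dbp (-0.70), and against HIF1α∆IEC for Clock (0.11) and Dbp (-1.60). Without both libraries that stood apart they turned in HIF1α∆IEC against control for Cry2 (0.14), Clock (-0.60) and Nr1d2 (-0.07), in HIF2α∆IEC against control for Per2 (-0.36), Per3 (-0.51), Clock (-0.023), Nr1d1 (-0.78), Nr1d2 (-0.76) and Dbp (-2.60), and against HIF1α∆IEC for Per1 (-0.19), Per2 (-0.24), Per3 (-0.46), Clock (0.58) and Dbp (-3.34). The cause was not tested.

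Leaving out 1 library at a time, log2 fold changes that turned ran, in HIF1α∆IEC against control, from -0.14 to 0.14 for Cry2, -0.31 to 0.62 for Per1, -0.60 to 0.63 for Clock, -0.07 to 0.77 for Nr1d2 and -0.50 to 0.03 for Cry1. In HIF2α∆IEC against control they ran from -0.51 to 0.49 for Arntl, -0.069 to 0.33 for Clock, -0.78 to 0.40 for Nr1d1, -0.36 to 0.73 for Per2, -0.51 to 1.05 for Per3, -0.76 to 0.94 for Nr1d2 and -2.60 to 2.06 for Dbp. Against HIF1α∆IEC they ran from -0.50 to 0.73 for Clock, -1.27 to 0.54 for Nr1d2, -0.14 to 1.53 for Per3, -3.12 to 1.09 for Dbp, -0.93 to 0.21 for Nr1d1 and -0.23 to 0.80 for Arntl. The r of Arntl with Clock ran from -0.0295 to 0.387. That of Arntl with Dbp ran from -0.963 to -0.907, that of Nr1d1 with Dbp from 0.904 to 0.965 and that of Arntl with Nr1d1 from -0.956 to -0.873.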

Other observations

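Per1 did not follow Dbp closely, and its pattern lay nearest to another gene. Tsc22d3, which encodes the glucocorticoid-induced leucine zipper GILZ and stood on the lists of clock outputs and of glucocorticoid response genes, had the highest r with Per1 of all tested genes (r = 0.988, rho = 0.983 over 9 libraries), a pair chosen after its values were seen and so given with no test. Tsc22d3 was at 66.2, 45.2 and 35.2 CPM in controls, at 79.4, 33.1 and 48.9 CPM in HIF1α∆IEC, and at 119, 63.3 and 47.6 CPM in HIF2α∆IEC. Without HIF1α∆IEC replicate 2 and HIF2α∆IEC replicate 1, the farthest from the median of Per1, r was 0.971.

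Epas1, the gene named by the HIF2α∆IEC label, ranked 12th of 15485 genes by r with Dbp (r = 0.937, and 0.932 without the 2 libraries that stood apart). It was at 32.7, 14.5 and 21.1 CPM in controls and at 29.8, 18.5 and 22.3 CPM in HIF1α∆IEC. In HIF2α∆IEC it was at 36.2, 11.2 and 11.6 CPM. The library with the most Dbp, HIF2α∆IEC replicate 1, also held the most Epas1 of all 9. HIF2α∆IEC replicates 2 and 3 held the least of both genes, and Epas1 is the gene targeted in that group. These whole-gene levels check nothing about the deletion, and the cause of the likeness was not tested.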
